A study of Mus musculus with 8 samples.

Results

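The 6 genes Lcn2, Ltf, Lbp, Bpifb5, Wfdc2 and Clca1 encode secreted proteins of epithelial defence, and they are described here across the epithelium and stroma of mouse uteri with and without Ezh2. They were taken by symbol from 5828 genes that appear in at least 1 of 4 deposited comparison tables. They were chosen by their deposited averages, fold changes and calls in those same tables, so every level, ratio and call below is a description of how these genes stood, and none is an independent test. The uteri came from 4 control females and 4 conditional knockout females, with 1 of each genotype drawn from every litter, on a mixed C57BL/6 and 129SvEv background. Controls (WT below) had the genotype EZ fl/fl, so they carried the floxed Ezh2 alleles without a recombinase. Knockouts (KO below) had the genotype EZ fl/fl; Prcre/+, in which Cre is driven from the progesterone receptor locus. That locus is active in epithelium, stroma and muscle of the uterus, so the deletion is not limited to a single compartment. All 8 females were ovariectomized at postnatal day 71 ± 4 and their uteri were collected at day 112 ± 11. Sections of 10 µm were profiled with Visium, in which spots under the tissue capture messenger RNA with a positional barcode, and a spot can cover cells of more than 1 type.

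Mucosal epithelia protect the surface they line by secreting proteins that starve, bind or trap microbes. Lipocalin 2 (Lcn2) takes up bacterial siderophores, the small molecules with which bacteria gather iron, and lactoferrin (Ltf) binds iron itself. Lipopolysaccharide-binding protein (Lbp) passes bacterial lipopolysaccharide to CD14 and the TLR4 receptor complex, and Bpifb5 belongs to the same family of lipid-binding BPI-fold proteins. Wfdc2, also known as HE4, is a small protein with the disulfide-rich WAP domains found in protease inhibitors. Clca1 is a secreted regulator of calcium-activated chloride channels that is associated with mucus. Ltf and Lcn2 are classical estrogen-responsive genes of the mouse uterus, and both are also stored in neutrophil granules. EZH2 is the enzyme of Polycomb repressive complex 2 that places the repressive histone mark H3K27me3.

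On GRCm38, in GENCODE release M21, all 6 are protein-coding genes and none overlaps another annotated gene. Lcn2 lies at chr2:32384633-32388252 on the minus strand, with a coding region of 200 codons in 6 exons. Bpifb5 lies at chr2:154223742-154240902, Lbp at chr2:158306493-158332852 and Wfdc2 at chr2:164562413-164568510, all on the plus strand. Thus 4 of the 6 are on chromosome 2, and Bpifb5, Lbp and Wfdc2 fall within 10.3 Mb of one another. Ltf lies at chr9:111019271-111042767 on the plus strand, and Clca1 at chr3:145003817-145032776 on the minus strand. Their coding regions run from 174 codons in Wfdc2 to 913 in Clca1.

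RefSeq promoter windows on GRCm38.p6 were found for 4 of the 6, namely Lcn2, Ltf, Bpifb5 and Wfdc2. Upstream windows are shown for Ltf and Bpifb5, because they stood on opposite sides of WT in the epithelium of knockouts and each holds a match to GGTCA. This is a single arm of the palindromic estrogen response element, marked in capitals. Neither difference had an adjusted p under 0.05 in the authors' deposited table, and a role of the match was not tested. The Ltf stretch is chr9:111019042-111019270 and ends where the annotated transcript begins. The Bpifb5 stretch is chr2:154223492-154223741. Both are on the plus strand.

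Ltf: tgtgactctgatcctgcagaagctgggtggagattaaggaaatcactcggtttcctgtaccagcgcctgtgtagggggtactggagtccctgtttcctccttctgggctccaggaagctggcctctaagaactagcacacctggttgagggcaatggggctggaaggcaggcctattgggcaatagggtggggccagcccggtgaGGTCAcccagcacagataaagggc

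Bpifb5: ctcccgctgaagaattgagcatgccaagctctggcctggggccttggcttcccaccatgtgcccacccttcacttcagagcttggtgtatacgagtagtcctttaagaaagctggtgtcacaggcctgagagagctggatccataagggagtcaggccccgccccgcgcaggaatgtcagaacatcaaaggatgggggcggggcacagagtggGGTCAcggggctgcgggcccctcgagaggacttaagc

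The match begins 45 bases upstream of the RefSeq start in Ltf and 37 bases upstream in Bpifb5. GGTCA on either strand occurs in 35.2% of all 32851 promoter windows of 250 bases, so the match is common. The Lcn2 and Wfdc2 windows hold none, and 197 and 146 of their 250 bases lie in annotated exons of the same genes. These windows, chr2:32387740-32387989 and chr2:164562465-164562714, lie wholly inside the GENCODE spans of Lcn2 and Wfdc2. For these genes the sequence upstream of the GENCODE start was therefore not searched. The full palindromic element (GGTCA and TGACC with any 3 bases between them) occurs in 0.0639% of windows, the kappaB motif in 7.25% and the TATA box TATAAA in 12.4%, searched on both strands, and no window of the 4 genes holds any of these. Sequence beyond these 250 bases was not searched, so elements further away could not be seen. Polycomb repressive complex 2 is known for binding CpG-rich promoters. The windows held 3 CpG dinucleotides in Lcn2, 4 in Ltf, 9 in Bpifb5 and 14 in Wfdc2, against a median of 6 over all windows. Relative to base composition (observed over expected CpG), Lcn2 stood at 0.154 and Ltf at 0.188, below the median of 0.373, while Bpifb5 stood at 0.403 and Wfdc2 at 0.535. The CpG values of Lcn2 and Wfdc2 are thus of sequence inside the annotated genes.

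The deposited tables give 1 average per gene for each of 4 pools of spots (WT epithelium, KO epithelium, WT stroma and KO stroma), each pooled over the 4 animals of a genotype. There is therefore no spread between animals, and intervals below are 95% intervals of counting error in the pooled sums of unique molecular identifiers (UMIs), which were recovered from the averages. Relative to WT epithelium, depth was 1.08 in KO epithelium, 0.393 in WT stroma and 0.791 in KO stroma, and scaled levels are UMIs at the depth of WT epithelium. Markers separated the compartments in both genotypes, by less in KO. The summed level of 18 markers of simple epithelium was 6.45 times as high in epithelium as in stroma in WT and 2.59 times in KO. The summed level of 26 markers of endometrial stroma in epithelium was 0.358 of that in stroma in WT and 0.534 in KO. Ezh2 is not among the genes of the tables, so no check of the deletion from its transcript was made. Pgr, whose locus carries the Cre allele, stood at 0.862 times WT in epithelium and 0.917 times in stroma, neither called (adjusted p = 1 for both, the authors' deposited tables).

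In the epithelium, 1 of the 6 genes was called, which here means an adjusted p under 0.05 in the authors' deposited table. Lcn2 fell in KO, and none was called higher. Of 5811 genes listed for this comparison, 0.0516% were called higher in WT and 0.0688% higher in KO, 0.12% in all. All 6 had a deposited average above 1 in both epithelium pools, so none entered the table through a single genotype. The median over the 6 log2 ratios (KO over WT) was -0.18, where all listed genes had a median of -0.10. In pools of spots, fewer cells of a type and less RNA per cell cannot be told apart.

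Lcn2 had 259 UMIs in WT epithelium, 85 in KO epithelium and 6 in WT stroma. At the depth of WT epithelium these are 259, 78.4 (62.6 to 97.0) and 15.3 (5.60 to 33.2), and the intervals of the pools do not overlap. In epithelium it fell 3.30-fold in KO (2.58 to 4.27; adjusted p = 0.0367, the authors' deposited table), and 7 of the 5811 genes had a lower ratio. In WT it was 17.0 times as high in epithelium as in stroma (7.70 to 46.7). Neither table with KO stroma lists Lcn2. No gene was found missing from a table in which its known average passed 1, and that rule puts its sum in KO stroma at no more than 89 UMIs, or 112 on the common scale. That limit is above its level in KO epithelium, so the direction between the KO pools is not known.

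Ltf, whose protein binds iron itself, had 425 UMIs in WT epithelium, 232 in KO epithelium, 26 in WT stroma and 54 in KO stroma. On the common scale the KO epithelium level was 214 (187 to 243), and the stroma levels were 66.1 (43.2 to 96.8) in WT and 68.2 (51.3 to 89.0) in KO. WT epithelium was thus the highest pool, KO epithelium came next, and the stroma pools did not differ beyond counting error. The level in KO epithelium was 0.504 of that in WT (0.427 to 0.592), and it was not called (adjusted p = 1, the authors' deposited table). A counting interval that leaves out 1 is common in this comparison, at 23.1% of listed genes. In stroma the ratio of KO over WT was 1.03 (0.635 to 1.72), from the recovered sums alone, since that table does not list Ltf.

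Lbp and Bpifb5, which share a protein fold, both rose in KO stroma. Lbp had 593 UMIs in WT epithelium and 571 in KO epithelium, a ratio of 0.888 (0.791 to 0.998). In stroma it had 24 UMIs in WT and 174 in KO, or 61.0 (39.1 to 90.8) and 219.8 (188 to 255) on the common scale. It rose 3.60-fold in KO stroma (2.34 to 5.78; adjusted p = 0.00576, the authors' deposited table). The order of its pools was WT epithelium, KO epithelium, KO stroma and WT stroma, and the ratio between the epithelium pools was the smallest step, 1.13 (1.00 to 1.26).

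Bpifb5 had 121 UMIs in WT epithelium, 186 in KO epithelium, 17 in WT stroma and 212 in KO stroma. On the common scale the levels were 121 (100.4 to 145), 172 (148 to 198), 43.2 (25.2 to 69.2) and 268 (233 to 306). KO stroma was therefore the highest pool, 1.56 times KO epithelium (1.28 to 1.91), although the authors' deposited table does not call that difference (adjusted p = 0.606). Between genotypes it rose 6.20-fold in stroma (3.78 to 10.8; adjusted p = 0.00536, the authors' deposited table). In epithelium the ratio of KO over WT was 1.42 (1.12 to 1.80), and the authors' deposited table does not call it (adjusted p = 1).

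Wfdc2 had 3980 UMIs in WT epithelium, 3767 in KO epithelium, 157 in WT stroma and 697 in KO stroma. On the common scale the last 3 are 3476 (3366 to 3589), 399 (339 to 467) and 881 (816 to 948), so the pools do not overlap. The ratio of KO over WT was 0.873 in epithelium (0.835 to 0.913) and 2.21 in stroma (1.85 to 2.64), and the authors' deposited tables call neither (adjusted p = 1 and 0.712). Both genotypes had a higher level in epithelium, by 9.97-fold in WT (8.50 to 11.8) and 3.95-fold in KO (3.64 to 4.29), and both differences were called.

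Clca1 had the highest ratio of KO over WT in stroma of all 1191 genes listed there. It had 307 UMIs in WT epithelium, 809 in KO epithelium, 17 in WT stroma and 270 in KO stroma. On the common scale these are 307 (274 to 343), 746 (696 to 799.7), 43.2 (25.2 to 69.2) and 341 (302 to 384). KO epithelium was the highest pool and WT stroma the lowest, and KO stroma did not differ from WT epithelium beyond counting error (ratio 1.11, 0.940 to 1.31). It rose 7.89-fold in KO stroma (4.84 to 13.8; adjusted p = 0.00468, the authors' deposited table). In epithelium its ratio was 2.43 (2.13 to 2.78), the 18th highest of 5811, without a call (adjusted p = 0.598, the authors' deposited table).

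**Figure D1:**
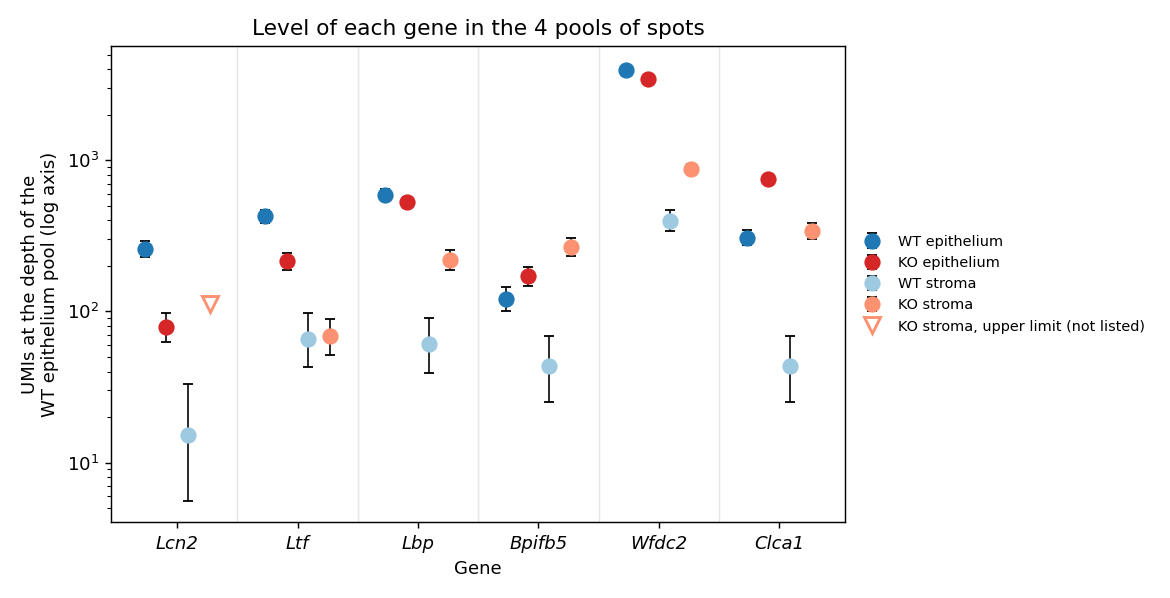
Level of each gene in the 4 pools, as UMIs at the depth of the WT epithelium pool on a log axis, with bars for 95% counting intervals and an open triangle for the upper limit of Lcn2 in KO stroma, where it is not listed. KO epithelium (red) lies below WT epithelium (dark blue) for Lcn2 and Ltf and above it for Clca1, and KO stroma (pale red) is the highest pool for Bpifb5.

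In the comparison of genotypes in stroma, 4 of the 6 genes were listed, and Clca1, Bpifb5 and Lbp were called, all 3 higher in KO. Of 1191 listed genes, 0.756% were called in each direction, 1.51% in all, and 46.2% had a counting interval that leaves out 1. For these 3 genes the average passed 1 only in KO stroma, so they had to differ, since they came into the table through the pool in which they were high. Among the 140 genes listed in that way, 5% were called, and the median of their log2 ratios was 0.45. Wfdc2 had an average above 1 in both pools. The count of members called here is set by the choice of genes and by the listing, and it says nothing beyond the values given.

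Markers of epithelium moved in the same direction in the stroma spots. The summed level of the 18 epithelium markers was 2.18 times as high in KO stroma as in WT stroma, and 17 of the 18 had a higher value in KO. The median of their ratios was 2.32. Krt8 stood at 2.65 times WT (1.92 to 3.75), Krt18 at 2.20, Krt19 at 2.94 and Epcam at 2.39 in stroma, none of them called. In epithelium the summed markers stood at 0.877 times WT. Their part in the members' values was not tested.

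**Figure D2:**
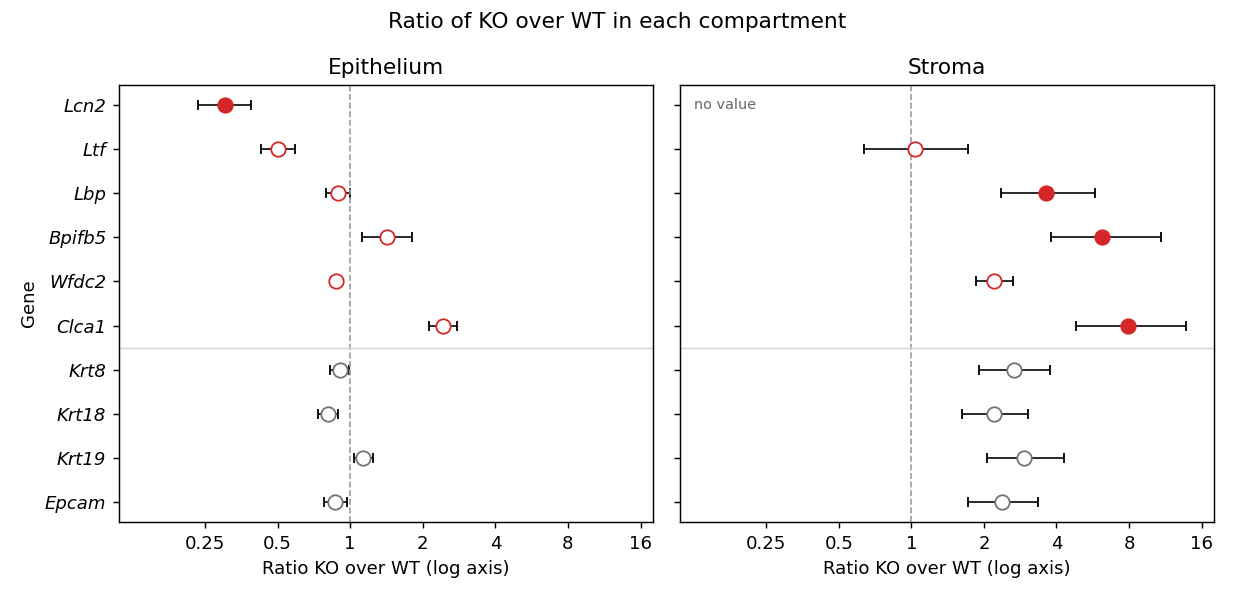
Ratio of KO over WT in epithelium (left) and stroma (right) on log axes for the 6 genes (red) and 4 epithelium markers (grey), with bars for 95% counting intervals and filled points where the authors' deposited adjusted p is under 0.05. In stroma the markers lie between 2.20 and 2.94, Wfdc2 lies at 2.21 among them, and Clca1 and Bpifb5 lie at 7.89 and 6.20.

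To show the members beside those markers directly, each gene was also expressed per 1000 UMIs of the 18 markers in the same pool, with intervals from the gene's own counts. On this scale Wfdc2 was level between genotypes, at 367 in WT and 366 in KO epithelium and at 238 and 240.4 in stroma, so that its ratio of KO over WT was 0.996 (0.952 to 1.04) in epithelium and 1.01 (0.850 to 1.21) in stroma. Lbp had 54.8 in WT and 55.5 in KO epithelium. In stroma it had 36.3 (23.3 to 54.0) in WT and 60.0 (51.4 to 69.6) in KO, a ratio of 1.65 (1.08 to 2.65). The ratio of KO over WT for Lbp in stroma is thus less than the one from depth scaling, and its interval still leaves out 1.

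Clca1 and Bpifb5 were higher in KO on the marker scale in both compartments. Clca1 went from 28.3 to 78.6 in epithelium, a ratio of 2.77 (2.43 to 3.17), and from 25.7 to 93.1 in stroma, a ratio of 3.62 (2.22 to 6.31). In WT the amount of Clca1 per marker UMI did not differ between epithelium and stroma beyond counting error (ratio 1.10, 0.677 to 1.92). The same held for Ltf (0.998, 0.671 to 1.54). Bpifb5 went from 11.2 to 18.1 in epithelium, a ratio of 1.62 (1.28 to 2.05), and from 25.7 to 73.1 in stroma, a ratio of 2.84 (1.73 to 4.97). Unlike Clca1, it had more per marker UMI in stroma than in epithelium in both genotypes, by 2.30-fold in WT (1.30 to 3.84) and 4.05-fold in KO (3.31 to 4.96).

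Lcn2 and Ltf were lower in KO on the same scale. Lcn2 had 23.9 (21.1 to 27.0) in WT epithelium and 8.25 (6.59 to 10.2) in KO epithelium, a ratio of 0.345 (0.267 to 0.443). Ltf had 39.2 in WT and 22.5 in KO epithelium, a ratio of 0.574 (0.487 to 0.675), and 39.3 in WT and 18.6 in KO stroma, a ratio of 0.474 (0.291 to 0.788). Ltf was thus lower in KO in both compartments per epithelium marker, whereas by depth it was level in stroma. None of these ratios has a test between animals.

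**Figure D3:**
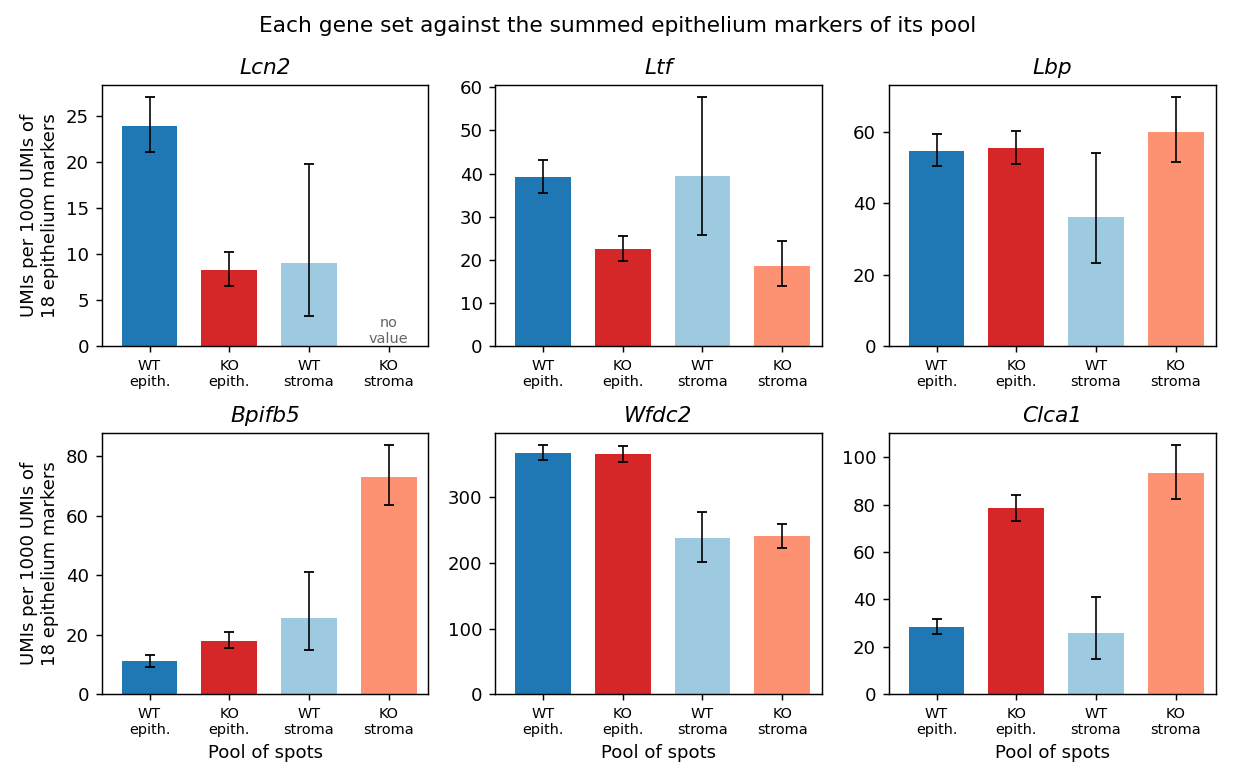
UMIs of each gene per 1000 UMIs of 18 epithelium markers in the same pool, with bars for 95% counting intervals of the gene's own sum. Wfdc2 stands at 367 and 366 in epithelium and at 238 and 240.4 in stroma, Clca1 is higher in both KO pools, Ltf is lower in both, and Bpifb5 is highest in KO stroma at 73.1.

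Between compartments, all 5 members that the WT table lists were called higher in epithelium, where 13.1% of 1769 listed genes were called in that direction, 28.8% in either, and 65.6% had a counting interval that leaves out 1. Of these, Lcn2, Ltf, Lbp and Clca1 were listed through epithelium alone, and among the 341 genes listed in that way 47.8% were called. Ltf was 6.43-fold higher in WT epithelium (4.33 to 9.96), Lbp 9.72-fold (6.47 to 15.3) and Clca1 7.10-fold (4.36 to 12.4). Bpifb5 is not listed there, and its recovered sums give 2.80-fold (1.68 to 4.96), a smaller contrast than that of the other 5. The authors' deposited table gives Lbp an adjusted p of 4.88e-13 and Ltf 0.00992. In KO, 2 of the 5 listed members were called higher in epithelium, Wfdc2 and Lbp, the latter by 2.40-fold (2.02 to 2.86), where 5.43% of 2744 listed genes were called in that direction, 4.45% in the other and 9.88% in all, and 45.8% had a counting interval that leaves out 1. Clca1 stood at 2.19-fold (1.90 to 2.52) and Ltf at 3.14-fold (2.32 to 4.30) without a call. The compartment and genotype comparisons share pools, so their values for a gene are not separate evidence.

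The contrast between compartments was smaller in KO for every member with a value in all 4 pools, and so it was for most genes with a high contrast in WT. Among 1755 genes with a value in all 4 pools, 178 had a log2 ratio of epithelium over stroma of at least 1 in WT, and 177 of these had a smaller one in KO, with medians of 2.02 and 1.00. The 178 were picked by their WT ratio, and that choice by itself favours a smaller ratio in KO, so the count is a description only. In 2 of the 178, Bpifb5 and Emc6, the ratio fell below 0 in KO. Bpifb5 went from 1.49 to -0.64 on the log2 scale, Lbp from 3.28 to 1.26, Clca1 from 2.83 to 1.13, Wfdc2 from 3.32 to 1.98 and Ltf from 2.68 to 1.65. The drop was the 8th largest of the 1755 genes for Bpifb5, the 9th for Lbp, the 18th for Clca1, the 49th for Wfdc2 and the 86th for Ltf. These ranks describe the 4 pools, and the difference between the contrasts was not tested.

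**Figure D4:**
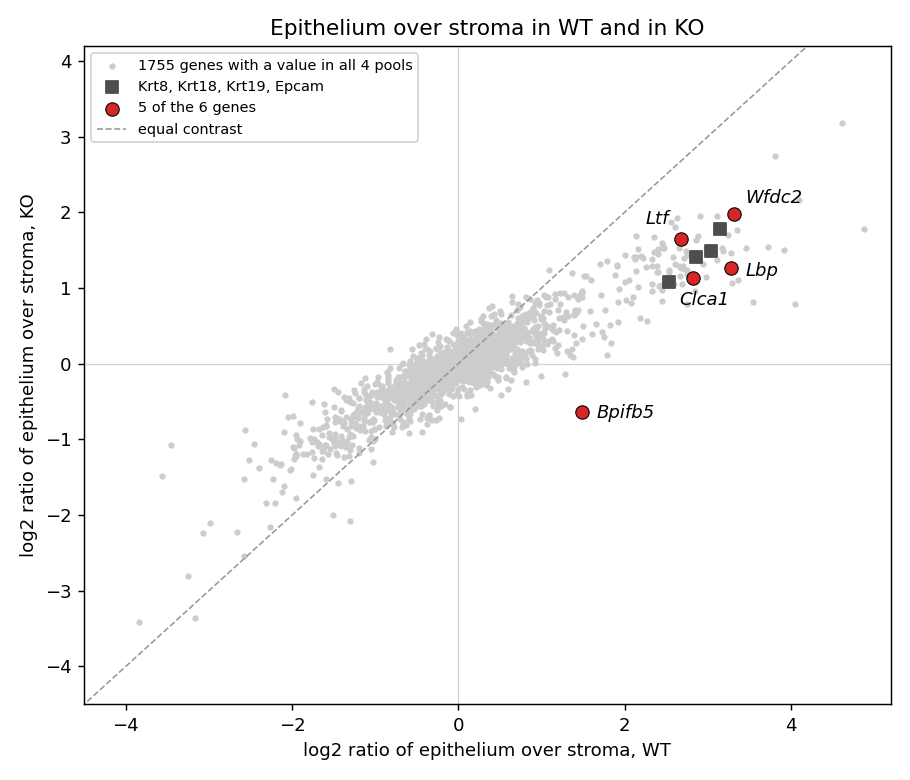
Each point is 1 of 1755 genes with a value in all 4 pools, placed by its log2 ratio of epithelium over stroma in WT (horizontal) and in KO (vertical), with equal contrast along the dashed line. Ltf and Clca1 lie within the range of Krt8, Krt18, Krt19 and Epcam (squares). Lbp, at 3.28 in WT and 1.26 in KO, and Wfdc2, at 3.32 and 1.98, lie beyond that range. Bpifb5 lies at 1.49 in WT and -0.64 in KO.

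Other cell types that could carry these transcripts were looked at by their markers. Of 18 neutrophil genes, 2 are in any table, and these are Lcn2 and Ltf themselves. S100a8 and S100a9, the abundant neutrophil calgranulins, are in none of the tables, which by the listing rule used for Lcn2 puts their averages at no more than 1 in each pool. Of 18 macrophage genes, 6 were listed for the epithelium of both genotypes, and none was called. C1qb (2.20 times WT), Tyrobp (1.64), Fcer1g (1.52) and Laptm5 (1.31) stood above WT, and Lyz2 (0.694) and Cd14 (0.592) below it, with a median log2 ratio of 0.50. Lyz2 and Cd14, the 2 with a value in all 4 pools, had a summed level of 0.753 of WT in KO stroma. That sum is a limited measure of macrophages. It holds only the 2 genes that stood below WT in epithelium, and Cd14 was called higher in epithelium than in stroma in both genotypes. Smooth muscle markers stood at 0.697 of WT in epithelium and 0.540 in stroma, with 0 of 13 higher in KO stroma. Beside Lcn2 and Ltf, 7 genes of the glandular list were listed in epithelium and none was called. Wif1 (2.12 times WT), Lgr5 (1.13) and Cxcl15 (2.32) stood above WT, and Aldh1a1 (0.721), Axin2 (0.702), Fxyd4 (0.736) and Gas1 (0.938) below it. The median of their log2 ratios was -0.093, near that of all genes. The part of these cell types in the members' values was not tested.

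Pathway partners of the members are described next, in a comparison that called 0.12% of all genes in epithelium, so that few calls in a list are no result about it. Of 27 genes of lipopolysaccharide sensing, 12 were listed for the epithelium of both genotypes and none was called (median log2 ratio -0.18). Cd14, the receptor to which Lbp hands lipopolysaccharide, had 198 UMIs in WT and 127 in KO epithelium, a ratio of 0.592 (0.470 to 0.743; adjusted p = 1, the authors' deposited table). It was called higher in epithelium than in stroma in WT (4.33-fold, 2.67 to 7.45) and in KO (2.65-fold, 1.81 to 3.97), as Lbp was. In stroma, where Lbp rose, Cd14 had 18 UMIs in WT and 35 in KO, a ratio of 0.966 (0.533 to 1.81), and that table does not list it.

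Iron handling showed 1 call in epithelium, Lcn2 itself, among 14 listed genes of 31, and the median was -0.17. The ferritin subunits Fth1 and Ftl1, which store iron, stood at 1.05 and 1.06 times WT, and Slc22a17, a receptor for lipocalin 2, stood at 0.840 (0.635 to 1.11). These 3 were named after their values were seen. In stroma 4 genes of the list were present and none was called.

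The secreted antimicrobial list held 9 genes in epithelium, of which Lcn2 alone was called. Of these 9, 4 are members described above, and 4 of the 5 others (Cxcl15, Cxcl17, Rnase4 and Sftpd, but not Lyz2) had a higher value in KO. Cxcl17, a mucosal chemokine with antimicrobial activity, was 4.95-fold higher in KO epithelium than in KO stroma (3.15 to 8.13) and was called there, and its ratio of KO over WT in epithelium was 1.19 (0.924 to 1.52). Among 5 listed genes of mucins and the mucosal barrier, none was called in epithelium and 4, Clca1 among them, stood above WT. Fcgbp, a mucus component that binds immunoglobulin, had 200 UMIs in WT and 226 in KO epithelium, and 8 and 79 in stroma (4.91-fold, 2.37 to 11.8, not listed in that table). Of 6 listed chloride channel and Clca genes, none was called between genotypes in epithelium. Ano1, the calcium-activated chloride channel that Clca1 is known to act on, had higher levels in stroma in both genotypes and was called so in both. Its ratio of KO over WT was 1.46 (1.13 to 1.88) in epithelium and 0.949 (0.765 to 1.18) in stroma, neither called.

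Families of the members were thinly represented. Of 16 annotated Bpi, Lbp and Bpif genes, 15 lie on chromosome 2, and Lbp and Bpifb5 are the 2 in any table. Of 19 Wfdc genes with Slpi, Wfdc2 and 3 more are in a table (Wfdc1, Wfdc10 and Wfdc15b). Of 7 Clca genes, all on chromosome 3, Clca1 is the 1 in a table. None of Wfdc1, Wfdc10 and Wfdc15b was called between genotypes in epithelium, and their ratios of KO over WT were 0.970, 0.615 and 1.20.

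Of 34 estrogen-responsive genes of the uterus, 20 were listed in epithelium and 1 was called, Lcn2, which fell. On values alone, 14 of the 20 stood above WT, and the list's median log2 ratio was 0.23 beside -0.10 over all genes. Complement C3, known for its response to estrogen, had 204 UMIs in WT and 504 in KO epithelium, a ratio of 2.28 (1.93 to 2.70; adjusted p = 0.598, the authors' deposited table). Lcn2 and Ltf on the one side and Clca1 and C3 on the other thus lay on opposite sides of WT, although all 4 are in this list. Esr1, the estrogen receptor, stood at 0.921 (0.836 to 1.01) in epithelium and 0.782 (0.692 to 0.885) in stroma.

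Genes with the most similar pattern over the pools were sought by the root mean square difference of log2 levels, each centred on its mean over the pools. For Ltf, over 4 pools and 1732 candidates, the nearest were Mt2, a metallothionein (0.052), Cndp2, a dipeptidase (0.14), and Pdzk1ip1 (0.16), where the median candidate was at 1.13. Mt2 had 1271 UMIs in WT epithelium, 656 in KO epithelium, 78 in WT stroma and 149 in KO stroma. For Lbp they were Fzd10, a Wnt receptor (0.097), Dgat2, an enzyme of triglyceride synthesis (0.10), and Thrsp (0.12). For Wfdc2 they were Enpp3 (0.17), Grb7 (0.19) and Perp (0.20).

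No gene came as near to the other 3. For Lcn2, over 3 pools, the nearest were Hdc, the enzyme that makes histamine (0.34), Slc25a48 (0.42) and Enpp3 (0.46), and Hdc had 262 UMIs in WT epithelium, 141 in KO epithelium and 6 in WT stroma. For Bpifb5 they were the chemokine gene Cxcl14 (0.47), the noradrenaline transporter gene Slc6a2 (0.53) and Clic1 (0.53). For Clca1 they were Cbr2 (0.36), Cxcl14 (0.47) and Fcgbp (0.51). Cxcl14, among the nearest genes of both though at 0.47 from each, had scaled levels of 528 in WT epithelium, 1439 in KO epithelium, 168 in WT stroma and 1003 in KO stroma. As for Clca1, its highest pool was KO epithelium, whereas that of Bpifb5 was KO stroma. The 2 KO pools of Cxcl14 were closer to each other than the WT pools were. That trait is not particular to it, since 177 of 178 genes with a WT log2 ratio of at least 1 had a smaller ratio in KO.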

How the data were processed

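The 4 deposited tables give for every gene, per the file headers, the average in each group, the log2 fold change and the adjusted p-value. The authors' averages pool the spots of all animals of a genotype. GRCm38 is the build in the submitters' processing notes. How reads were aligned, how spots were named and which test was run is not given in the sources used here, and the deposited adjusted p-values may rest on spots rather than animals. The members and the gene lists were chosen with earlier results of these data known.

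The deposited log2 fold changes are those of pooled UMI sums plus 1 over size factor sums plus 1. Solving for the size factor sums gave whole UMI sums (within 0.01) for 100% of genes, and the sums of a pool differed between tables for 0 genes. Tables list genes whose average passes 1 in either pool. Ratios are of sums scaled by size factor sums, with exact Clopper-Pearson 95% intervals, and levels have exact Poisson 95% intervals. Both cover counting error only. Recovery was tested on simulated data. A member was called at a deposited adjusted p-value under 0.05, and no p-value was computed.

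Named genes were the 6 members, up to 4 called members per list, table and direction of 16 lists, Krt8, Krt18, Krt19, Epcam, S100a8, S100a9, Ezh2, Pgr and Esr1 where listed, and the 3 genes nearest in pattern to each member (0.1 added to each level, at least 50 UMIs). Genes outside this rule are Slc22a17, Fth1, Ftl1, Wfdc1, Wfdc10, Wfdc15b, Emc6 and, in comparisons that do not call them, members of a list. Genes within 250 kb of a member were added after seeing the data. Alternatives were an adjusted p-value under 0.01, a log2 fold of at least 1 either way, leaving out the lowest 25% of genes, centring, scaling by UMI totals, and the deposited log2 values. Protein sequences were not used here, and the luminal marker list is not reported here. Of 5828 gene IDs, 5826 were found in GENCODE. Python 3.11.15, NumPy 2.4.6, SciPy 1.17.1, pandas 2.3.3 and matplotlib 3.10.9 were used.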

Additional observations from a re-analysis of the deposited data

How the results depend on the processing

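With the threshold on the authors' deposited adjusted p at 0.01, 0 members were called for epithelium (KO and WT), since Lcn2 has 0.0367, and the other 3 counts did not change. Without the lowest 25% of listed genes by level, the count for stroma (KO and WT) was 0 and that for the compartments of WT was 3, because that filter left 1 and 3 members in these tables. A minimum log2 fold of 1 changed no count. Over 20 member ratios and 3 other scalings, 59 of 60 values stayed within the counting interval and 0 changed sign, and the largest shift was 0.20 on the log2 scale. The exception was Wfdc2 between genotypes in epithelium, at -0.091 once folds were centred on the median gene. No paired analysis was possible because each deposited average is over all animals of its genotype. The same holds for leaving out single animals. Depth limits WT stroma most, where Lcn2 had 6 UMIs and Clca1 and Bpifb5 had 17 each.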

Other observations

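Of protein-coding genes within 250 kb of the 6 members, 23 were listed between genotypes in epithelium and 4 in stroma, and 0 were called in either by the authors' deposited tables, which call 0.12% and 1.51% of all listed genes there, so that 0 calls are no result about the neighbours. Their log2 ratios of KO over WT, as deposited, ran from -0.69 to 1.73 in epithelium and from -0.28 to 0.97 in stroma. None of the 11 such neighbours of Bpifb5 and none of the 7 of Clca1 was listed in either comparison.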
